A study of Mus musculus with 9 samples.

Results

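Hox genes encode homeodomain transcription factors that give cells their position along the body axis. All genes of this family with a probe set of their own were read in cells of mouse interlimb somites, the blocks of paraxial mesoderm between the limb levels. Members were chosen by gene name, as every probe set with a single symbol made of Hoxa, Hoxb, Hoxc or Hoxd and a number. Earlier results of these data were known at that choice. This gave 48 probe sets of 45037 tested, for 33 genes of 18193. Of 38 Hox genes considered, Hoxa6, Hoxb8, Hoxc11, Hoxc12 and Hoxd4 had no such probe set. Probe sets shared by 2 Hox genes were Hoxd4 with Hoxd3, on 2 sets, and Hoxb8 with Hoxb7, on 1.

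Transcripts were measured on Affymetrix arrays at embryonic day 9.5 in 3 groups of 3 samples, 9 in all. In embryos labelled Pax3GFP/+ (below, GFP/+) 1 Pax3 allele carries GFP, so that cells with an active Pax3 locus can be sorted, and the other is intact. In embryos labelled Pax3PAX3-FKHR/GFP the other allele produces PAX3-FKHR, the fusion of PAX3 with the forkhead factor FOXO1 found in alveolar rhabdomyosarcoma. Both of these groups are GFP+ cells. Neither is free of the GFP allele, which removes 1 copy of Pax3, and by design PAX3-FKHR/GFP cells keep no intact Pax3 allele. The PAX3-FKHR allele is conditional and was activated by a PGK-Cre transgene, which is active in all tissues rather than in somites alone, so that an action in other cells of the embryo cannot be told apart from an action in the sorted cells. GFP- cells, the last group, came from the same dissected region. Their Pax3 genotype is not in the labels, and the study's text places them in GFP/+ embryos in its results and names wild-type embryos in its list of hybridised groups. Embryos were pooled by genotype before sorting, on a mixed C57BL6 and DBA2 background. The study's methods call the 3 samples of a group biological replicates, without saying whether each was a separate pool of embryos, and p-values measure the spread between these samples. Fewer cells of a type and less RNA per cell cannot be told apart in such bulk samples.

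In mammals the Hox genes lie in 4 clusters, HoxA to HoxD, and genes in the same place in different clusters form a paralogue group that shares its number. Within a cluster, genes of low number lie at the 3′ end, are activated early and reach far forward in the embryo, whereas those of high number lie at the 5′ end and come on later and more posteriorly. In paraxial mesoderm the combination of active Hox genes sets the type of vertebra, and Hox proteins bind DNA together with cofactors of the TALE class, Pbx, Meis and Pknox. Retinoic acid and Cdx factors act upstream of many Hox genes, and Polycomb and trithorax proteins maintain their off and on states.

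The labels were checked first. Pax3, the targeted gene, was 25.9-fold higher in GFP/+ than in GFP- cells and fell by 0.91 on the log2 scale with PAX3-FKHR. In PAX3-FKHR/GFP cells it was still 13.8-fold above GFP- cells (9.82-fold to 53.3-fold over its 3 probe sets). Which parts of the targeted alleles these probes can read was not analysed here, so the fall checks the labels only in part. Of 11 measured dermomyotome markers 10, Pax3 among them, were higher in GFP/+ than in GFP- cells, as were 5 of 7 neural crest and 5 of 7 sclerotome markers. In GFP- cells 7 of 9 markers of lateral and intermediate mesoderm, 5 of 5 of primitive erythroid cells, 4 of 6 of surface ectoderm, 4 of 6 of endothelium and 5 of 10 of neural tube were higher. Array medians lay between 4.63 and 4.68 on the log2 scale, arrays of a group correlated at 0.996 to 0.998, and their number, 3 a group, limits the precision.

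Upstream sequence is shown for the genes at the extremes of both comparisons below, Hoxb1 and Hoxa11 with PAX3-FKHR and Hoxd3 and Hoxd9 between GFP/+ and GFP- cells. The 250 bases before the start of each gene are given 5′ to 3′, from RefSeq on build GRCm38.p6. Capitals mark matches, on either strand, to TGATNNAT, a site of Hox proteins with Pbx, or to AGGTCA, a binding element of nuclear receptors such as those of retinoic acid.
Hoxb1 (chr11:96365508-96365757, plus strand): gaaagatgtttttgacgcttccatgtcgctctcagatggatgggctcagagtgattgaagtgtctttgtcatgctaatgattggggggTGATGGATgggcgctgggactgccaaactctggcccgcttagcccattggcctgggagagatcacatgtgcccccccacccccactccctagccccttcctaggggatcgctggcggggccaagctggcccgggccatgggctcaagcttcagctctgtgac
Hoxa11 (chr6:52245811-52246060, minus strand): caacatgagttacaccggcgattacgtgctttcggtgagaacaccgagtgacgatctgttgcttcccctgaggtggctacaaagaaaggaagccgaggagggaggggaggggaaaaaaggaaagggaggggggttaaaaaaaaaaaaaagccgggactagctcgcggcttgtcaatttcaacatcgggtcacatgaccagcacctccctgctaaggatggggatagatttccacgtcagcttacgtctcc
Hoxd3 (chr2:74711743-74711992, plus strand): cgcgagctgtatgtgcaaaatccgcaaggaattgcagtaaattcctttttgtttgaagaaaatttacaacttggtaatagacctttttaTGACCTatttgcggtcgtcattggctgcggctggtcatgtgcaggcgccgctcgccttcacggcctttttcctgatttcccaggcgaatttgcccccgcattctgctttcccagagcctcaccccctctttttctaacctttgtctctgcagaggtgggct
Hoxd9 (chr2:74697513-74697762, plus strand): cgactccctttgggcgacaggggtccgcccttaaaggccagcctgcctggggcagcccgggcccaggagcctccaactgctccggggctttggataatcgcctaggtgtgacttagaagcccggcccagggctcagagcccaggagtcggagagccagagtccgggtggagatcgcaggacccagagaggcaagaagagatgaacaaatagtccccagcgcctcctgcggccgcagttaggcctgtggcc
Hoxb1, which is known to maintain its own expression through Hox and Pbx sites, held TGATNNAT 162 to 155 bases before its start. Hoxd3 held AGGTCA, on the other strand, 161 to 156 bases before its start. Hoxa11 and Hoxd9 held neither, and none of the 4 held TAATTA, a homeodomain palindrome, or GTCACG, a core of Pax paired domain sites, in these 250 bases.

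The promoter table held 19 of the 33 measured Hox genes, in 21 windows, and was without Hoxa4, Hoxc5, Hoxc6 and Hoxc8. TGATNNAT was found in 3 of the 21 windows (Hoxa2, Hoxb1 and Hoxd11) against 7.69% of 32817 windows of the table, searched on both strands. AGGTCA was found in 5 (Hoxb4, Hoxc4, Hoxd3, Hoxd8 and Hoxd10) against 14% of the windows. TAATTA was found in 2 windows, both of Hoxd11, against 4.85%, and GTCACG in 2, of Hoxd10 and Hoxd11, against 6.93%. The Hox windows had a median GC content of 59.2% and 13 CpG dinucleotides, against 52.4% and 6 over the table. Among the sequences shown, Hoxd9 had 65.2% GC and Hoxd3 49.2%. These matches are letters only, with no measured binding.

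All values below are log2 expression values, and a difference is a difference of group means on that scale, ± its standard error with n = 3 a group. Each gene was read from its brightest probe set, and levels of different genes are not set against each other. The call asked for an adjusted p below 0.05 together with a difference of 0.5 or more in size, which is 1.41-fold. In 24 of the 33 genes the brightest probe set lay above the array's median on all 9 arrays. Hoxa10, Hoxd10 and Hoxd13 did so on 3 arrays, those of GFP- cells, and Hoxa13, Hoxb7, Hoxb13, Hoxc13, Hoxd11 and Hoxd12 on 0. Differences of so dim probe sets may be understated.

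**Figure D1:**
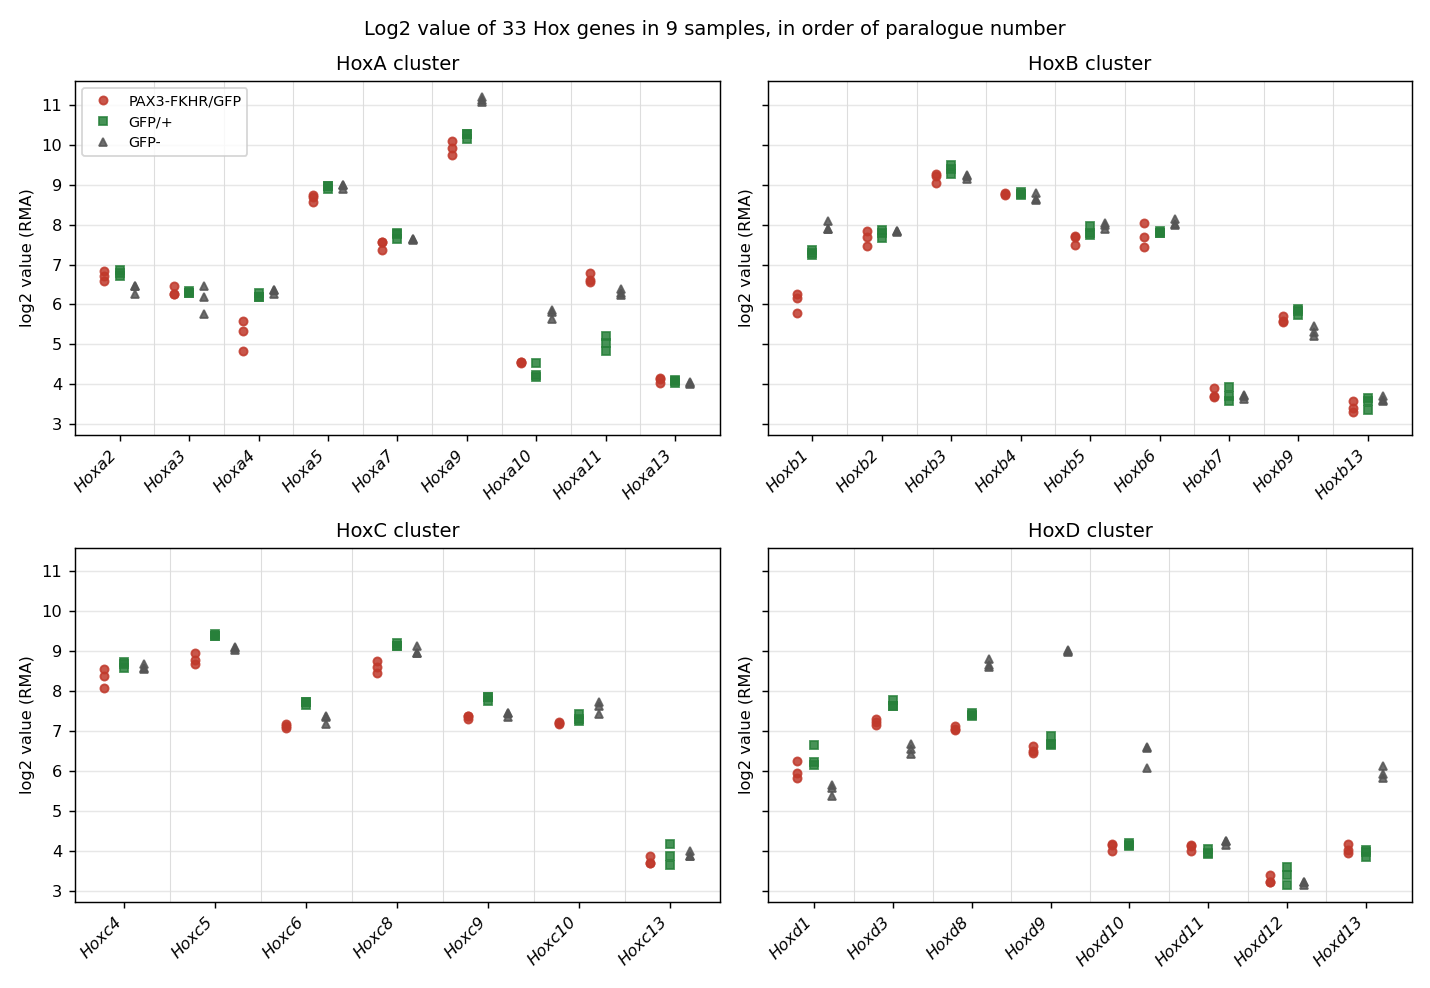
Log2 value (vertical axis) of each of 33 Hox genes (horizontal axis, in order of paralogue number) in each of 9 samples, with 1 panel per cluster. Points are samples, 3 each of PAX3-FKHR/GFP (red circles), GFP/+ (green squares) and GFP- cells (grey triangles), and in HoxD the GFP- samples lie above the others for Hoxd8, Hoxd9, Hoxd10 and Hoxd13 and below them for Hoxd1 and Hoxd3.

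The first comparison asked how Hox transcripts differ between GFP+ cells that carry PAX3-FKHR and those that keep Pax3. Of the 33 genes 1, Hoxa11, was higher with PAX3-FKHR, against 1.31% of all genes called higher. Lower were 5 genes, Hoxa4, Hoxb1, Hoxc5, Hoxc6 and Hoxc8, against 0.715% of all genes called lower, and 27 were not called. The difference was below 0 in 26 of the 33, against 50.5% of all genes, with a median of -0.20 against -0.0015 over all genes. All 3 PAX3-FKHR/GFP samples lay below all 3 GFP/+ samples in 16 Hox genes and above them in 2, Hoxa10 and Hoxa11, where 6.89% and 7.67% of all genes had no such overlap in those directions. The balance of signs changed little with the processing, with 25 to 27 of 33 genes below 0 when arrays were rescaled or any 1 sample was left out.

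Hoxa11, a 5′ gene of HoxA that acts in limb and kidney development, read 6.56, 6.62 and 6.79 in PAX3-FKHR/GFP cells, 5.04, 5.20 and 4.84 in GFP/+ cells and 6.28, 6.39 and 6.24 in GFP- cells. The GFP/+ samples were thus low and the other groups high, with no overlap between any groups. With PAX3-FKHR the level was 3.10-fold that of GFP/+ cells (difference 1.63, 95% interval 1.39 to 1.87, adjusted p = 2.42e-05). Against GFP- cells the difference was 0.35 ± 0.087 (adjusted p = 0.0262), under the limit for a call. Its neighbours differed less, by 0.23 ± 0.11 for Hoxa10 (adjusted p = 0.508) and 0.045 ± 0.085 for Hoxa13 (adjusted p = 0.931). Of 2 probe sets of Hoxa11os, the antisense transcript of the locus, the brighter differed by 0.47 ± 0.11 (adjusted p = 0.0557) and the other by 0.047 ± 0.081, and neither was called.

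Hoxb1, a gene of hindbrain rhombomere identity and of early mesoderm, read 5.79, 6.26 and 6.17 with PAX3-FKHR, 7.37, 7.23 and 7.28 in GFP/+ cells and 8.10, 7.88 and 7.89 in GFP- cells. The groups formed 3 separate steps, lowest with PAX3-FKHR. The level was 2.33-fold lower with PAX3-FKHR than in GFP/+ cells (-1.22 ± 0.12, adjusted p = 0.000294), and 1.58-fold lower in GFP/+ than in GFP- cells (-0.66 ± 0.076, adjusted p = 0.000312). Its paralogue Hoxd1 read 5.82, 5.96 and 6.26 with PAX3-FKHR and 6.16, 6.65 and 6.24 in GFP/+ cells, which overlapped (-0.33 ± 0.15, adjusted p = 0.476). The rest of HoxB, 8 genes from Hoxb2 to Hoxb13, held no call and lay between -0.21 and 0.027.

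Hoxa4, a gene of cervical and upper thoracic identity, read 4.84, 5.33 and 5.58 with PAX3-FKHR, 6.18, 6.18 and 6.28 in GFP/+ cells and 6.37, 6.36 and 6.25 in GFP- cells. The PAX3-FKHR/GFP samples were low and spread widely, and those of the other groups lay together. The level was 1.95-fold lower with PAX3-FKHR than in GFP/+ cells (-0.96 ± 0.16, adjusted p = 0.01001). A dimmer Hoxa4 probe set differed by -0.37 ± 0.084 (adjusted p = 0.0646). The other members of the group, Hoxb4 (-0.0069 ± 0.073) and Hoxc4 (-0.32 ± 0.11), were not called.

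In HoxC all 7 measured genes had a difference below 0, with a median of -0.46, against -0.083 in HoxA, -0.11 in HoxB and -0.15 in HoxD. The smaller medians moved with single samples. That of HoxA was -0.023 without PAX3-FKHR/GFP replicate 1, -0.14 without its replicate 3 and -0.045 without GFP/+ replicate 3, and for HoxB it was -0.24 and -0.18 when replicate 3 of the PAX3-FKHR/GFP or of the GFP/+ group was left out. That of HoxC stayed between -0.43 and -0.50 and that of HoxD between -0.12 and -0.16. When genes with a mean log2 value under 5 were left out, the HoxC median was -0.51. Those of HoxA, HoxB and HoxD, the last with 4 genes left, were then -0.23, -0.20 and -0.34. They lay further below 0 than with the dim genes included. Genes of HoxC act in the patterning of thoracic and lumbar levels. Hoxc5 read 8.67, 8.79 and 8.97 with PAX3-FKHR, 9.39, 9.39 and 9.43 in GFP/+ cells and 9.10, 9.03 and 9.08 in GFP- cells (PAX3-FKHR/GFP against GFP/+ -0.59 ± 0.090, adjusted p = 0.00607). Hoxc6 read 7.14, 7.17 and 7.08, then 7.65, 7.72 and 7.72, then 7.19, 7.38 and 7.36 in the same order of groups (-0.57 ± 0.075, adjusted p = 0.00255). In both genes GFP/+ samples were the highest, GFP- samples intermediate and PAX3-FKHR/GFP samples the lowest, without overlap. Hoxc8 read 8.46, 8.61 and 8.76 with PAX3-FKHR, 9.14, 9.13 and 9.21 in GFP/+ cells and 9.13, 8.95 and 8.95 in GFP- cells (-0.55 ± 0.090, adjusted p = 0.00970), so that the PAX3-FKHR/GFP samples lay below all others. Hoxc9 read 7.39, 7.39 and 7.30 against 7.75, 7.86 and 7.85, a difference of -0.46 ± 0.077 that passed the adjusted p (0.0113) and not the fold limit. Hoxc4 and Hoxc10 also had no overlap between groups (-0.32 and -0.13), and Hoxc13, dim on all arrays, did overlap. These 7 differences stayed below 0 under every scaling tried and without any 1 sample.

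Not all probe sets of a HoxC gene moved alike. A second Hoxc6 probe set was lower by 0.59 ± 0.080 (adjusted p = 0.00284), and a dimmer one differed by -0.066 ± 0.084. For Hoxc5 the other probe sets differed by -0.35 ± 0.12 and -0.13 ± 0.093 and were not called. With probe sets of a gene averaged, 3 Hox genes were lower in place of 5, Hoxa4, Hoxb1 and Hoxc8. The count of lower genes was 2, Hoxb1 and Hoxc6, when replicate 2 of either GFP+ group or replicate 3 of the GFP/+ group was left out. Hoxa4, Hoxc5 and Hoxc8 lost the call there with differences of -0.93 to -1.003, -0.58 to -0.60 and -0.53 to -0.57.

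In HoxD no gene was called with PAX3-FKHR. Hoxd3, active in paraxial mesoderm and needed for the first cervical vertebrae, passed the adjusted p alone (-0.45 ± 0.083, adjusted p = 0.0191), reading 7.16, 7.22 and 7.30 against 7.78, 7.64 and 7.62. Hoxd8 and Hoxd9 likewise had no overlap between groups but were not called (-0.34 ± 0.077 and -0.20 ± 0.091). A dimmer Hoxd8 probe set differed by -0.042 ± 0.12, with overlap between groups. The posterior members Hoxd10 to Hoxd13 lay between -0.10 and 0.12. By paralogue number, the median was -0.26 in groups 1 to 4, with 2 of 10 genes lower, -0.27 in groups 5 to 8, with 3 of 9 lower, and -0.11 in groups 9 to 13, with 0 of 14 lower and Hoxa11 higher. Among these 14, Hoxa10, Hoxa13, Hoxb13, Hoxc13 and Hoxd10 to Hoxd13 lay under the array median in both GFP+ groups. A fall in such dim genes could be missed, so the absence of calls there does not show that they were unchanged.

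**Figure D2:**
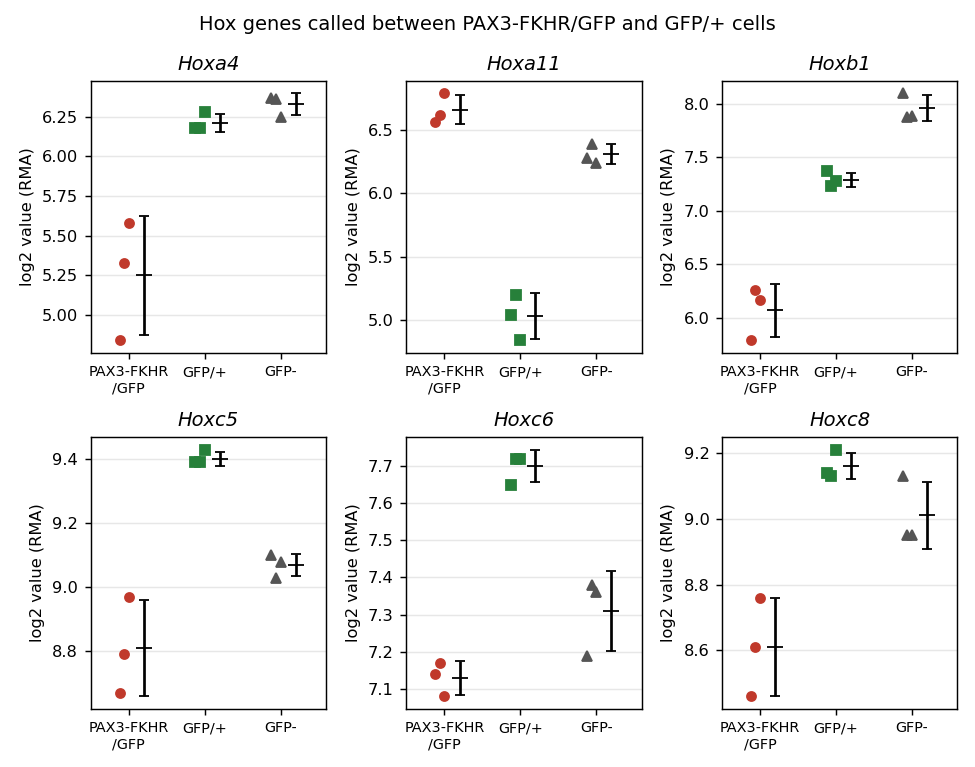
Log2 value (vertical axis) in each sample of the 6 Hox genes called between PAX3-FKHR/GFP and GFP/+ cells (points, 3 a group), with the group mean and SD as black bars. PAX3-FKHR/GFP samples lie below GFP/+ samples in 5 panels and above them for Hoxa11, and for Hoxb1 the 3 groups form separate steps.

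Other marks moved along with these differences. Samples of PAX3-FKHR/GFP were not equal, with a mean over the 33 Hox genes of 6.39, 6.46 and 6.53 in replicates 1, 2 and 3, against 6.63 to 6.67 in GFP/+ and 6.88 to 6.92 in GFP- samples. The list of TALE cofactors, none of which was called by its brightest probe set, also read lowest in PAX3-FKHR/GFP replicate 1 (mean 8.06, against 8.18 and 8.29). This was not particular to that list. Polycomb and trithorax genes (8.43, against 8.57 and 8.62) and flanking genes (6.78, against 6.86 and 6.93) also read lowest there. So did every other list but those of endothelium, surface ectoderm and primitive erythroid cells. Signals of 3′ less 5′ Gapdh probe sets were 1.55 to 1.71 in PAX3-FKHR/GFP and 1.75 to 2.01 in GFP/+ samples. Among cell type markers 6 of 7 of myotome were lower and 1 higher with PAX3-FKHR (mean over the list 7.21 to 7.32 against 8.14 to 8.25), and 3 of 7 of sclerotome were lower and 1 higher (7.55 to 7.75 against 7.87 to 7.92). Of dermomyotome markers 4 of 11 were higher and 2 lower (8.14 to 8.38 against 7.90 in each GFP/+ sample), and of primitive erythroid markers 1 of 5 was higher (6.84 to 6.87 against 6.53 to 6.60). The 2 lower dermomyotome markers include Pax3 itself, and the 4 higher include Pax7, Lbx1 and Met, which the study proposes as regulated by Pax3. That list is therefore not a mark of cell type alone. In its screen for Pax3 targets the study also lists Myf5, Myog and Myf6 of the myotome markers as changed with PAX3-FKHR. It lists Foxc1, Foxc2 and Uncx of the sclerotome markers, Tfap2b of neural crest and Dbx1 of neural tube as well. The lists of these 4 tissues are likewise not marks of cell type alone. Of neural crest markers 1 of 7 was higher (8.44 to 8.62 against 8.22 to 8.32), while the defining Sox10 and Foxd3 differed by 0.14 and 0.28 and were not called. Of neural tube markers 2 of 10 were higher and 2 lower (6.37 to 6.51 against 6.15 to 6.17), and of lateral and intermediate mesoderm markers 1 of 9 was higher and 0 lower (4.95 to 5.01 against 4.92 to 4.98). The part of these in the Hox differences was not tested.

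The second comparison asked how Hox transcripts differ between GFP/+ cells and the GFP- cells around them. Of the 33 genes 2 were higher in GFP/+ cells, Hoxd1 and Hoxd3, against 1.92% of all genes called higher. Lower were 8, Hoxa9, Hoxa10, Hoxa11, Hoxb1, Hoxd8, Hoxd9, Hoxd10 and Hoxd13, against 5.05% of all genes called lower, and 23 were not called. Groups did not overlap in 9 genes that were higher and 10 that were lower in GFP/+ cells, against 12.2% and 16% of all genes. The median difference over the 33 was -0.015 against 0.0078 over all genes. By paralogue number, groups 1 to 4 had 2 genes higher and 1 lower of 10 (median 0.13), groups 5 to 8 had 0 higher and 1 lower of 9 (0.052), and groups 9 to 13 had 0 higher and 6 lower of 14 (-0.26).

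HoxD differed in both directions along the cluster. At its 3′ end Hoxd1, a gene whose loss leaves few defects in the mouse, read 6.16, 6.65 and 6.24 in GFP/+ cells and 5.58, 5.66 and 5.39 in GFP- cells, and was 1.74-fold higher in GFP/+ cells (0.80 ± 0.13, adjusted p = 0.00301). Hoxd3 read 7.78, 7.64 and 7.62 in GFP/+ cells and 6.55, 6.44 and 6.69 in GFP- cells, and was 2.18-fold higher (1.12 ± 0.083, adjusted p = 1.19e-05). GFP/+ samples were high and GFP- samples low in both genes, without overlap. For Hoxd3 the PAX3-FKHR/GFP samples lay between them. A probe set shared by Hoxd3 and Hoxd4 was also higher in GFP/+ cells (0.56 ± 0.084, adjusted p = 0.00200), and the other shared one differed by 0.47 ± 0.081 (adjusted p = 0.00491), under the fold limit.

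Toward the 5′ end 4 genes, Hoxd8, Hoxd9, Hoxd10 and Hoxd13, were lower in GFP/+ cells. Hoxd8, expressed in trunk mesoderm and neural tube, read 7.46, 7.37 and 7.41 in GFP/+ cells, 8.81, 8.65 and 8.60 in GFP- cells and 7.02, 7.06 and 7.13 with PAX3-FKHR, and was 2.42-fold lower in GFP/+ than in GFP- cells (-1.28 ± 0.070, adjusted p = 1.33e-06). Its dimmer probe set was lower too (-1.64 ± 0.098). Hoxd9, a gene of lower trunk and proximal limb, read 6.65, 6.87 and 6.67 in GFP/+ cells, 8.98, 9.02 and 9.04 in GFP- cells and 6.46, 6.51 and 6.62 with PAX3-FKHR, and was 4.87-fold lower in GFP/+ cells (-2.28 ± 0.072, adjusted p = 2.42e-08). GFP- samples stood far above both GFP+ groups in these genes.

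Hoxd10, a gene of lumbosacral identity, read 4.15, 4.12 and 4.20 in GFP/+ cells, 6.08, 6.57 and 6.60 in GFP- cells and 4.18, 4.16 and 4.01 with PAX3-FKHR. Hoxd13, the most posterior gene of the cluster, which shapes digits and the urogenital tract, read 3.84, 3.98 and 4.02, then 5.93, 5.82 and 6.13, then 3.94, 4.18 and 4.03. In both genes the GFP+ samples lay under the array median, so that the signal there may be background, and GFP- samples were high. The fitted differences were -2.26 ± 0.13 (4.80-fold, adjusted p = 1.92e-06) and -2.01 ± 0.10 (4.03-fold, adjusted p = 6.74e-07). A dimmer Hoxd13 probe set differed by -0.14 ± 0.11 and was not called. Hoxd11 and Hoxd12, which lie between them and were dim on all arrays, differed by -0.25 ± 0.078 (adjusted p = 0.0848) and 0.18 ± 0.11 (adjusted p = 0.396).

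In HoxA the 3 genes from Hoxa9 to Hoxa11 were lower in GFP/+ than in GFP- cells. Hoxa9, a thoracic to lumbar gene also known from leukaemia, read 10.26, 10.26 and 10.14 in GFP/+ cells, 11.08, 11.11 and 11.19 in GFP- cells and 9.73, 9.91 and 10.10 with PAX3-FKHR (GFP/+ against GFP- -0.90 ± 0.055, adjusted p = 2.78e-06). Hoxa10, a lumbar patterning gene, read 4.19, 4.24 and 4.53, then 5.64, 5.85 and 5.81, then 4.53, 4.56 and 4.56 (-1.45 ± 0.11, adjusted p = 1.37e-05). GFP- samples lay above all others in both genes. Hoxa11 was 2.43-fold lower in GFP/+ than in GFP- cells (-1.28 ± 0.10, adjusted p = 1.99e-05). A dimmer probe set of Hoxa9 (-0.32 ± 0.13) and that of Hoxa10 (-0.098 ± 0.068) were not called. The 5 genes from Hoxa2 to Hoxa7 were not called and lay between -0.12 and 0.40, with Hoxa2, a gene of the hindbrain and branchial arches, passing the adjusted p alone (0.40 ± 0.081, adjusted p = 0.0117).

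Members of a paralogue group did not always share a direction in this comparison. In group 1 Hoxb1 was lower and Hoxd1 higher in GFP/+ cells. In group 9 Hoxa9 and Hoxd9 were lower, while Hoxb9 (0.49 ± 0.087, adjusted p = 0.00569) and Hoxc9 (0.40 ± 0.063, adjusted p = 0.00248) had differences above 0 that passed the adjusted p and not the fold limit. In group 10 Hoxa10 and Hoxd10 were lower, and Hoxc10 differed by -0.27 ± 0.089 (adjusted p = 0.108). HoxC held no call, with differences of -0.27 to 0.40, and the median was 0.15. Hoxb9 read 5.88, 5.74 and 5.84 in GFP/+ cells, 5.46, 5.22 and 5.31 in GFP- cells and 5.59, 5.57 and 5.72 with PAX3-FKHR, and was called higher in 4 of 15 alternative settings, with differences of 0.53 to 0.56. The count of higher genes was then 3.

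**Figure D3:**
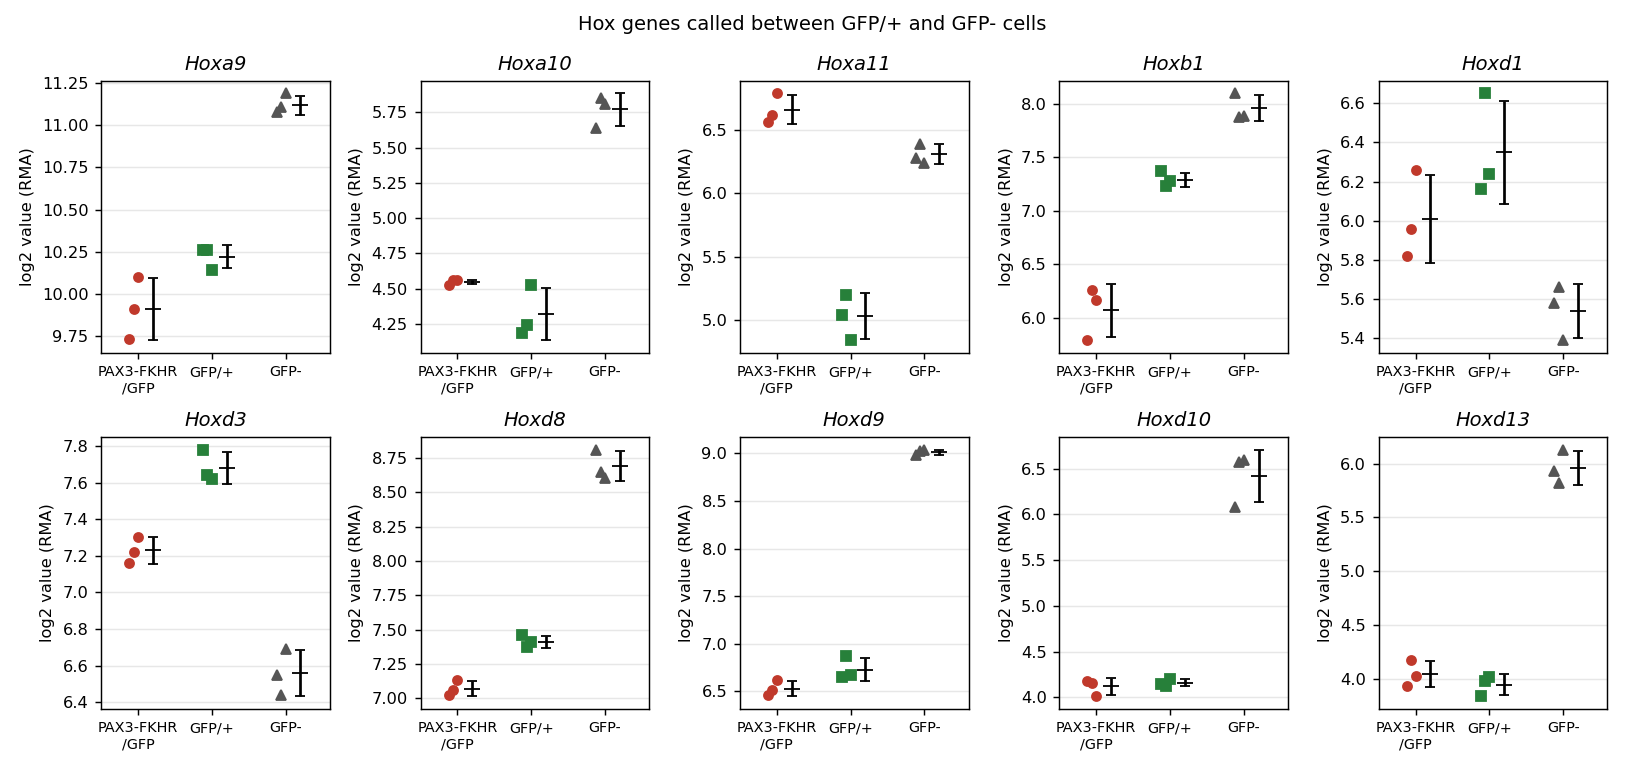
Log2 value (vertical axis) in each sample of the 10 Hox genes called between GFP/+ and GFP- cells (points, 3 a group), with the group mean and SD as black bars. GFP- samples lie above GFP/+ samples in 8 panels and below them for Hoxd1 and Hoxd3, and PAX3-FKHR/GFP samples lie near GFP/+ samples for Hoxd9, Hoxd10 and Hoxd13 and far above them for Hoxa11.

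Markers of other tissues were higher in GFP- cells, among them lateral and intermediate mesoderm, in which posterior Hox genes are known to be active. Of 9 markers of lateral and intermediate mesoderm 7 were lower in GFP/+ cells and 0 higher, with a mean over the list of 4.92 to 4.98 against 6.78 to 6.86, and the defining Hand2 and Osr1 differed by -4.51 and -2.80. Of 10 neural tube markers 5 were lower and 1 higher (6.15 to 6.17 against 6.69 to 6.81), with Olig2 at -2.55 and Dbx1, the 1 higher, at 2.81. All 5 primitive erythroid markers were lower (6.53 to 6.60 against 10.8 to 10.9), as were 4 of 6 markers each of surface ectoderm (5.32 to 5.41 against 7.85 to 7.90) and of endothelium (5.26 to 5.36 against 6.04 to 6.15). Of somite markers 10 of 11 of dermomyotome (Pax3 among them), 4 of 7 of myotome and 5 of 7 of sclerotome were higher in GFP/+ cells and 0 were lower. The part of these in the Hox differences was not tested.

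PAX3-FKHR/GFP cells were also set against GFP- cells, a comparison that shares samples with both others. Hoxd3 was higher (0.67 ± 0.086, adjusted p = 0.000363), against 2.63% of all genes called higher. Lower were 8, Hoxa4, Hoxa9, Hoxa10, Hoxb1, Hoxd8, Hoxd9, Hoxd10 and Hoxd13, against 5.2% of all genes called lower. The differences were -2.48 ± 0.074 for Hoxd9, -1.88 ± 0.12 for Hoxb1, -1.62 ± 0.080 for Hoxd8, -1.21 ± 0.099 for Hoxa9 and -1.08 ± 0.15 for Hoxa4. Those of Hoxd10 (-2.30 ± 0.13), Hoxd13 (-1.91 ± 0.11) and Hoxa10 (-1.22 ± 0.089), dim with PAX3-FKHR, may be understated. A dimmer Hoxa9 probe set was also lower (-0.52 ± 0.13, adjusted p = 0.0299). Hoxd1 differed by 0.47 ± 0.12, under the fold limit, and was called higher without PAX3-FKHR/GFP replicate 1 (0.57), which made the count of higher genes 2. HoxC had 7 differences below 0 and no call (-0.40 to -0.058). Of the antisense transcripts, 1 of 2 probe sets of Hoxd3os1 was lower (-0.68 ± 0.085, adjusted p = 0.000256).

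**Figure D4:**
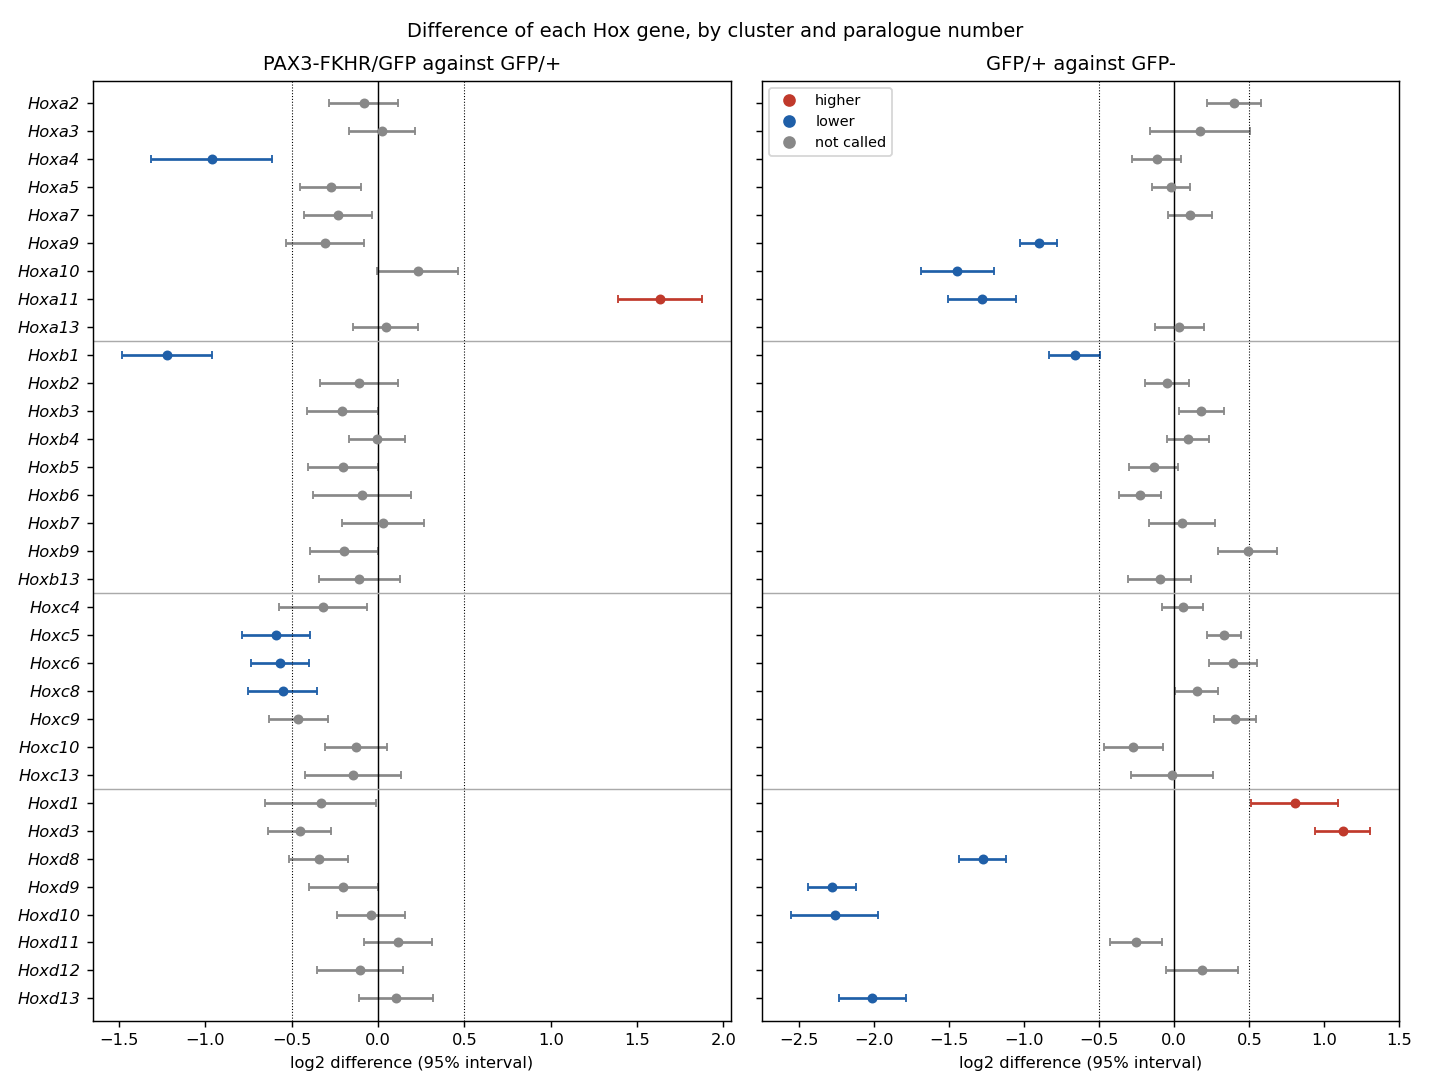
Log2 difference of each of 33 Hox genes with its 95% interval (horizontal axis), by cluster and paralogue number from top to bottom, for PAX3-FKHR/GFP against GFP/+ cells (left) and GFP/+ against GFP- cells (right). Red and blue points were called higher and lower, grey ones were not called, and dotted lines mark the limit of 0.5. On the left all 7 HoxC points lie below 0, and on the right HoxD points lie above 0 for Hoxd1 and Hoxd3 and at -1.28 or below for Hoxd8, Hoxd9, Hoxd10 and Hoxd13.

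Genes around the Hox system were read from lists. With PAX3-FKHR 0 of 8 measured TALE cofactors, 0 of 17 Polycomb and trithorax genes and 0 of 15 genes that flank the clusters were called in either direction, with medians of -0.082, -0.0023 and 0.0092. Each was read from its brightest probe set only, and other probe sets of these genes were not examined. The study lists Meis1 as lower with PAX3-FKHR in somites, whereas its brightest probe set here differed by -0.14 ± 0.12 (adjusted p = 0.797). The absence of calls therefore does not show that the cofactors were unchanged. Of 11 axial regulators 2 were higher and 1 lower. Egr2, the zinc finger factor Krox20 that activates Hoxa2, Hoxb2 and Hoxb3 in the hindbrain, read 10.02, 10.25 and 10.34 with PAX3-FKHR, 8.94, 8.73 and 8.79 in GFP/+ cells and 8.59, 8.42 and 8.63 in GFP- cells. PAX3-FKHR/GFP samples were the highest, and the difference to GFP/+ cells was 1.39 ± 0.10 (adjusted p = 3.60e-05). Hoxa2 (-0.083 ± 0.090), Hoxb2 (-0.11 ± 0.10) and Hoxb3 (-0.21 ± 0.093) were not called in the same cells.

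Enzymes that set the supply of retinoic acid were among those called. Cyp26a1, which degrades retinoic acid, read 7.23, 7.16 and 7.06 with PAX3-FKHR, 6.41, 6.19 and 6.25 in GFP/+ cells and 6.75, 6.91 and 6.91 in GFP- cells. It was higher with PAX3-FKHR (0.86 ± 0.090, adjusted p = 0.000490) and lower in GFP/+ than in GFP- cells (-0.57 ± 0.083). Aldh1a2, which makes retinoic acid in somites, read 9.46, 9.70 and 9.70, then 10.08, 10.17 and 10.13, then 9.60, 9.63 and 9.59, and was lower with PAX3-FKHR (-0.51 ± 0.088, adjusted p = 0.0147), just past the fold limit, and higher in GFP/+ than in GFP- cells (0.52 ± 0.049). For each enzyme GFP/+ samples stood apart from both other groups. The receptors Rara, Rarb and Rarg differed by 0.15, -0.082 and -0.029 with PAX3-FKHR and were not called.

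Between GFP/+ and GFP- cells 1 of the 8 TALE cofactors was higher, Pknox2 (1.21 ± 0.058, adjusted p = 5.10e-07), and Meis1, Meis2, Pbx2 and Pbx3 lay between -0.20 and -0.094 without a call. Of the axial regulators Aldh1a2 was higher and 4 were lower, Cyp26a1, Rarb (-1.05 ± 0.084), Cdx2 (-0.87 ± 0.16) and Rarg (-0.64 ± 0.075). Cdx2, a regulator of posterior Hox genes, read 4.07, 3.87 and 4.02 in GFP/+ cells and 4.87, 4.48 and 5.20 in GFP- cells, a dim signal in both. Of 15 flanking genes Evx1, the homeobox gene next to Hoxa13, was lower (-0.50 ± 0.13, adjusted p = 0.0414), and 14 were not called, among them Evx2 beside Hoxd13 (0.046 ± 0.074). Evx1 read 3.93, 3.87 and 4.02 in GFP/+ cells and 4.62, 4.59 and 4.12 in GFP- cells. It lay under the array median in both groups and just passed the fold limit. No Polycomb or trithorax gene of 17 was called.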

How the data were processed

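Sorted cells of mouse interlimb somites were measured on 9 Affymetrix 3′ arrays. The authors deposited log2 values made with RMA, a method of background correction, quantile normalization and probe set summary, so a shift of all transcripts in a group would not be seen. The RMA version is not given in the sources used here. The treatment protocol of the labels speaks of forelimb buds, whereas titles and tissue give somites, as taken here. Of 45101 probe sets 64 controls were left out. Symbols came from the platform annotation, and each gene was read from its single-symbol probe set with the highest mean over the 9 arrays. The study's filter on absent probe sets was not applied.

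Groups were compared with limma 3.58.1 in R 4.3.3 (lmFit, eBayes with an intensity trend) on the 6 samples that each of 3 comparisons concerns, two-sided, with Benjamini-Hochberg adjustment over 45037 probe sets. The false discovery rate of 0.05 and the log2 limit of 0.5 are those of the study's methods, which used a local pooled error test, run here as an alternative. PAX3-FKHR/GFP against GFP- is not among the study's comparisons. The members, gene lists and markers were chosen with earlier results of these data known. All Hox genes were accounted for, with values by sample for each called in any comparison, and from other lists the genes called with PAX3-FKHR, while further list genes and Hox genes given by sample were chosen after their values were seen. The fits were tested on simulated data. Alternatives were other tests, all 9 arrays in 1 fit, a replicate block, 2 rescalings, a mean log2 value of at least 5, a 1.5-fold limit, the mean over probe sets and leaving out each sample. Upstream sequences came from RefSeq, and figures were drawn with matplotlib.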

Additional observations from a re-analysis of the deposited data

How the results depend on the processing

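Under 15 alternatives per comparison no Hox gene changed direction while called. With PAX3-FKHR against GFP/+ cells the count of lower Hox genes, 5, became 3 at a 1.5-fold limit, where Hoxc6 and Hoxc8 were lost, and 3 with probe sets averaged, where Hoxc5 and Hoxc6 were lost, and it ranged from 2 to 5 when 1 sample was left out. Hoxa11 and Hoxb1 passed in all 15. A minimum mean log2 value of 5 left Hoxa10, Hoxd10 and Hoxd13 untested, so that 5 in place of 8 Hox genes were lower than in GFP- cells, both in GFP/+ and in PAX3-FKHR/GFP cells. The count of genes higher with PAX3-FKHR than in GFP- cells, 1, ranged from 1 to 2 when 1 sample was left out. Of the differences of single genes 15 lost the call with PAX3-FKHR against GFP/+ cells, none did in the other comparisons, and 4 and 1 gained it there. After rescaling, the median difference of all genes was at most 0.0223 in size. Same-numbered samples of PAX3-FKHR/GFP and GFP/+ correlated in their deviations at 0.0055, 0.079 and -0.096. Those of GFP/+ and GFP- correlated at 0.094, 0.062 and 0.0095, and those of PAX3-FKHR/GFP and GFP- at -0.040 to 0.10. With 3 samples a group, correlations so weak cannot settle whether replicate numbers pair the samples. With the replicate number as a block the counts were 1 higher and 5 lower, 2 and 8, and 1 and 8 in the 3 comparisons, as without it. The detection calls of the arrays were not used, so dim signals have no stated background, and 3 arrays a group limit every value.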
